A study of Rattus norvegicus with 25 samples.

Results

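The 7 genes described here encode the opioid peptide precursors and their receptors. Prodynorphin (Pdyn), proenkephalin (Penk) and prepronociceptin (Pnoc) are the precursors, and the kappa (Oprk1), mu (Oprm1), delta (Oprd1) and nociceptin (Oprl1) opioid receptors are the other 4 members. Each was found by its gene symbol as 1 of the 26312 Ensembl gene identifiers listed for each brain region, and each symbol had a single identifier. The family was chosen with results of these data known, because Pdyn in the dentate gyrus stood first of all genes between control and stress-high animals, so the values of that comparison are given as a description without a test.

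The libraries were poly-A RNA-seq of tissue punches from the left basolateral amygdala (BLA) and the left dorsal dentate gyrus (DG) of adult, male, wild-type Sprague-Dawley rats. Stressed rats underwent 3 h of immobilization together with the scent of fox urine, a predator odour, and control rats stayed in the home cage. All rats then went through tests of avoidance and startle, and brains were taken on day 9. Stress-low and stress-high rats were stressed animals with low or high composite scores of anxiety-like behavior, so these 2 groups were defined by behavior and differ in outcome, not in treatment.

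Each library came from 1 animal and is named here by the animal's number. The BLA comparisons used 6 control, 3 stress-low and 3 stress-high libraries, and the DG comparisons used 5, 3 and 3. Control animal 2 in the BLA and control animal 35 in the DG were left out and are shown apart, since each stood away from the rest of its region. On the first principal component the BLA library of animal 2 scored 36.7 against -11.3 to 12.2 in the other 12, and the DG library of animal 35 scored 46.0 against -13.8 to 5.63 in the other 11. The BLA library of animal 35 was named as a control but its treatment field read stress, and it was kept as a control by its library name. Totals of expected counts, the estimated reads per gene, ranged from 12709493 to 22801247 in the BLA and from 11656439 to 19477932 in the DG. The stress-high animals were numbered 7, 19 and 20 and every stress-low animal was numbered above 20, so score and whatever followed the numbering cannot be told apart in that comparison.

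Opioid precursors are cut by prohormone convertases into short peptides that are stored in dense core vesicles and released on strong firing. Dynorphins act mainly at the kappa receptor, enkephalins at the delta and mu receptors, and nociceptin at its own receptor, and all 4 receptors couple to inhibitory G proteins. In the hippocampus dynorphin is a classical peptide of granule cells and their mossy fibres, in the striatum and central amygdala enkephalin and dynorphin mark classes of GABAergic projection neurons, and the dynorphin and kappa receptor system is known for its part in aversive states after stress.

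The proximal promoter of Pdyn is shown because Pdyn is the member whose level differed most between the groups. The RefSeq window for rat Pdyn in the GRCr8 build lies on the minus strand at chr3:137366454-137366753 and holds 250 bases before and 50 bases after the annotated transcription start. It is printed 5′ to 3′ with the letters TATAAA, those of a TATA box, in capitals.

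Pdyn promoter: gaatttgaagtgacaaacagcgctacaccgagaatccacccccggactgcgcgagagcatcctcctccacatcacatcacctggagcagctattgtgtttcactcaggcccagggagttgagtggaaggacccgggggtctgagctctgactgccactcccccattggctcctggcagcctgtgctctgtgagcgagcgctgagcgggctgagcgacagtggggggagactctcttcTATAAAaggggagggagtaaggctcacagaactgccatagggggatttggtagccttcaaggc

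The letters TATAAA, searched on both strands, occurred once and began at base 238 of the 300, which is -13 relative to the annotated start. Whether they act as a TATA box for that start was not tested. They were present in 14.2% of the 33469 rat promoter windows of that length. The core of the downstream regulatory element, GTCA, which the calcium-dependent repressor Kcnip3 (DREAM) binds, occurred 2 times on the opposite strand, and 85.6% of all windows held it on one strand or the other. The full cyclic AMP response element, TGACGTCA, and its first 5 letters, TGACG, were not in this window on either strand and were present in 1.83% and 21.2% of windows. The full element contains GTCA, so the 2 searches overlap. These matches describe the letters only. Of the 7 members, 3 had a window (Pdyn, Oprd1 and Oprm1), and TATAAA was in neither the Oprd1 window nor either of the 2 Oprm1 windows.

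Penk was the dominant opioid precursor mRNA of the BLA and Pdyn that of the DG. Levels are in TPM, the share of a library's transcripts that a gene holds after scaling for its length. In the 12 BLA libraries the median was 296 TPM for Penk, 9.11 TPM for Pnoc and 7.52 TPM for Pdyn, and Penk made up between 92.7% and 96.2% of the summed precursor TPM. In the 11 DG libraries the median was 119 TPM for Pdyn, 50.6 TPM for Penk and 11.5 TPM for Pnoc, and Pdyn was the highest of the precursors in 11 of 11. Its share of the precursor TPM in the DG ran from 45.6% to 77.9%.

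Among the receptors Oprl1 was the most abundant in both regions. It took a median of 51.1% of the summed receptor TPM in the BLA and 67.8% in the DG. In the BLA its 23.5 TPM was followed by Oprk1 at 10.1 TPM, and the ranges of these 2 genes did not overlap. Oprm1, at a median of 6.34 TPM, and Oprd1, at 6.10 TPM, could not be ordered in the BLA, since Oprm1 was the higher of the pair in 7 of 12 libraries. The neighbours Oprk1, Pnoc, Pdyn and Oprm1 also overlapped in range, step by step. In the DG Oprl1 (11.8 TPM) and Pnoc (11.5 TPM) overlapped, Oprm1 (2.46 TPM) and Oprd1 (2.17 TPM) overlapped, and Oprk1 lay below every other member at 0.39 TPM, between 9 and 29 expected counts per library. At those counts a change of Oprk1 in the DG could be measured only coarsely.

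The regions differed most in Pdyn and Oprk1, the dynorphin precursor and its receptor. In the 9 animals with a library of each region in use, Pdyn was higher in the DG in 9 of 9, by 4.82 to 37.3 times with a median of 21.1. Oprk1 was higher in the BLA in 9 of 9, by 18.2 to 76.8 times with a median of 27.8. Penk was higher in the BLA in 9 of 9 by a median of 4.86 times, and Oprd1, Oprm1 and Oprl1 were higher there in 9 of 9 by medians of 2.80, 2.44 and 2.24 times. Pnoc was the member with the most similar levels, at a median DG to BLA ratio of 1.29 and a range of 0.943 to 1.65. The libraries of the regions were quantified with different effective lengths (the gene length less 50 bases in the BLA and less about 268 bases in the DG), so the levels are set side by side and were not tested.

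**Figure D1:**
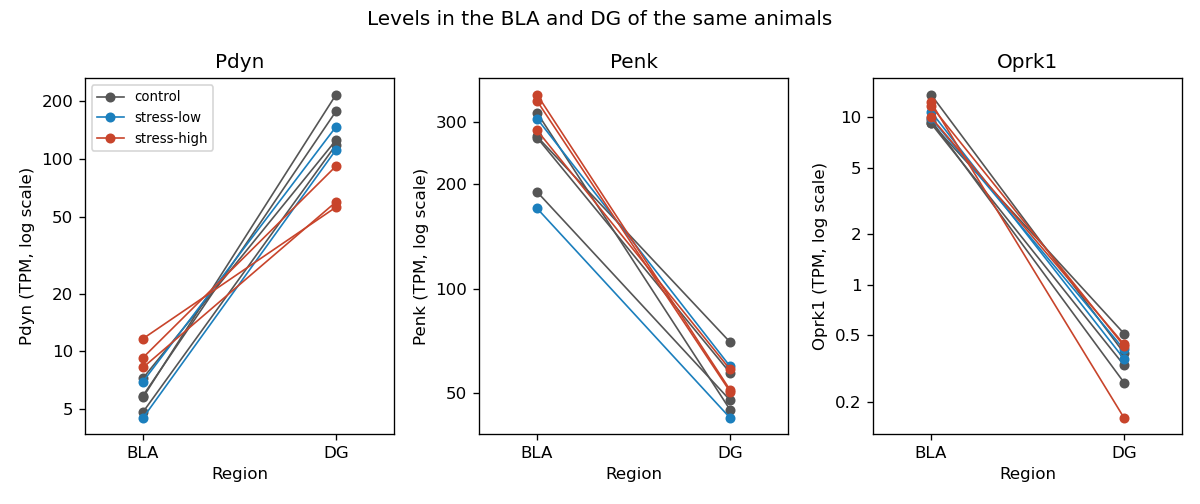
Pdyn, Penk and Oprk1 in the BLA and DG of the 9 animals with a library of each region in use, in TPM on a log axis, with 1 line per animal coloured by group. Every Pdyn line rises from the BLA to the DG and every Penk and Oprk1 line falls. Of the animals drawn, the 3 stress-high ones (red) have the lowest Pdyn in the DG. Stress-low animal 33 has no BLA library and is not drawn. Its 86.7 TPM of Pdyn in the DG lies below the 91.8 TPM of stress-high animal 7.

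In the DG, Pdyn was lower in stress-high than in control animals in every library. The 5 controls had 199, 125, 119, 177 and 216 TPM in animals 2, 14, 17, 28 and 32, the 3 stress-low animals 112, 86.7 and 147 TPM in animals 22, 33 and 34, and the 3 stress-high animals 91.8, 59.9 and 56.2 TPM in animals 7, 19 and 20. The lowest control lay above the highest stress-high animal, while the stress-low animals spanned the space between them and overlapped each neighbour. The mean was 167 ± 43.6 TPM (SD, n = 5) in controls, 115 ± 30.4 TPM (n = 3) in stress-low animals and 69.3 ± 19.6 TPM (n = 3) in stress-high animals.

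Between control and stress-high animals the log2 fold change of Pdyn in the DG was -1.24 ± 0.23 (SE), a ratio of 0.422. This is the comparison by which the family was chosen. The ranges of the 2 groups did not overlap for 1 of 7 members, Pdyn, as for 1.46% of the 14080 genes tested. Of all genes 2.19% had an unadjusted p under 0.05 in edgeR's quasi-likelihood test, as did 1 of 7 members, and 0% passed after Benjamini-Hochberg adjustment. Animal 35, the control set apart in the DG, had 121 TPM, inside the control range, and with it included the fold change was -1.21. Within the animals numbered up to 20 the fold change was -1.07. Against both stress groups together it was -0.88 ± 0.18, with 0% of genes passing the adjustment 4.42% below an unadjusted p of 0.05 and 0.27% not overlapping in range, against 0, 1 and 0 of 7 members, and that comparison shares its control and stress-high libraries with the one above.

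**Figure D2:**
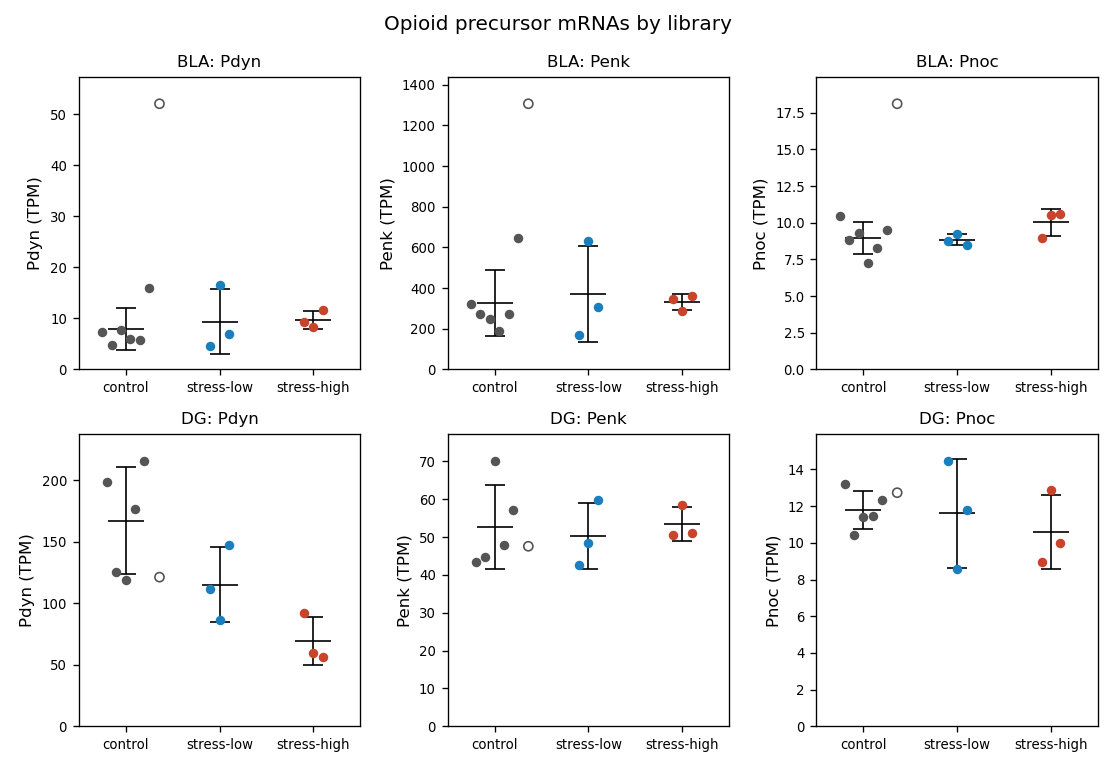
TPM of Pdyn, Penk and Pnoc in each library of the BLA (upper row) and DG (lower row) by group, with the mean and SD as black bars and the left-out control library as an open circle. The mean Pdyn of the DG is 167 TPM in controls, 115 in stress-low and 69.3 in stress-high animals. The stress-low values overlap those of each other group. In the BLA the highest Pdyn and Penk values belong to 1 control, 1 stress-low and the left-out library.

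Pdyn in the DG was also lower in stress-low than in control animals and lower in stress-high than in stress-low animals, and neither difference passed the test across all genes. Control versus stress-low gave a log2 fold change of -0.52 ± 0.22 (adjusted p = 0.718, edgeR quasi-likelihood test with Benjamini-Hochberg adjustment over 14080 genes). The exact two-sided permutation test of the TPM values gave p = 0.107, where 0.0179 is the smallest the design allows. At an unadjusted p under 0.05 Pdyn was 1 of 7 members in this comparison, beside 6.90% of all genes, and ranges that did not overlap were found for 0 of 7 members and 3.71% of genes.

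Stress-low versus stress-high gave -0.72 ± 0.25 for Pdyn (adjusted p = 1.0, edgeR), with a rank of 85 among the 14080 genes by p-value. The exact permutation test gave p = 0.20, and 3 animals against 3 cannot give less than 0.10. Here 1 of 7 members was below an unadjusted p of 0.05, beside 3.12% of all genes. With animal number above 20 as a covariate the fold change was -0.33. The control versus stress-low and stress-low versus stress-high comparisons each share libraries with the comparison that chose the family. That choice favoured high control and low stress-high values of Pdyn. The p-values of Pdyn in both comparisons are thus no independent test, and its changes there are a description.

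In these bulk punches fewer cells of a type and less RNA per cell cannot be told apart. The summed TPM of 9 granule cell markers (Prox1, Calb1, Dsp and others) ran from 747 to 1117 in controls and from 751 to 874 in stress-low animals. In stress-high animals it ran from 791 to 986, so the groups overlapped on this list. Pearson's r of Pdyn with the list sum in the DG was 0.37 (adjusted permutation p = 0.615, n = 11). It was 0.62 once group means were removed and 0.20 without the 2 libraries farthest in the list sum. The part of cell composition in the Pdyn levels was not tested. All 9 markers were found in the DG and none was at 0 throughout. The list of 8 CA pyramidal markers overlapped as well, from 201 to 236 TPM in controls and from 175 to 247 TPM in stress-high animals. Choroid plexus markers, a sign of tissue from beside the hippocampus, summed to between 4.2 and 9.69 TPM in controls (median 6.01). They summed to between 2.07 and 5.25 TPM in stress-low animals (median 4.25) and between 3.3 and 4.89 TPM in stress-high animals (median 4.61). The groups overlapped on this list too, and its part in the Pdyn levels was not tested.

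The other precursors of the DG did not pass the test in any comparison. Penk had 43.4, 44.9, 70.2, 47.8 and 57.3 TPM in control animals 2, 14, 17, 28 and 32, 42.5, 48.4 and 59.8 TPM in stress-low animals 22, 33 and 34, and 50.6, 58.6 and 51.2 TPM in stress-high animals 7, 19 and 20. The groups overlapped throughout and the log2 fold change from control to stress-high was 0.05 ± 0.14. The 95% interval of that change ran from -0.23 to 0.32. Pnoc ranged from 8.55 to 14.5 TPM over the 11 libraries, with both extremes in stress-low animals, and its log2 fold change from control to stress-high was -0.12 ± 0.18.

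The receptors of the DG did not pass the test in any comparison. Oprm1 was the member whose ranges did not overlap between the stress groups. It had 1.92, 1.92 and 2.43 TPM in stress-low animals 22, 33 and 34 and 2.91, 2.46 and 2.49 TPM in stress-high animals 7, 19 and 20. The gap between the groups was 0.03 TPM, the log2 fold change on counts was 0.23 ± 0.21 (adjusted p = 1.0, edgeR), and the exact permutation test gave its smallest possible p of 0.10. With animal number above 20 as a covariate the fold change was 0.0038, and without stress-low animal 34 it was 0.34. Ranges that do not overlap were found for 8.69% of all genes in this comparison, beside 1 of 7 members. Control animals ran from 1.70 to 3.00 TPM and covered both stress groups, and the left-out control of animal 35 was the lowest at 0.77 TPM.

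Oprl1 in the DG lay between 8.35 and 13.5 TPM in controls, 6.74 and 14.0 TPM in stress-low animals and 9.79 and 11.8 TPM in stress-high animals. Oprd1 lay between 1.29 and 3.33, 1.61 and 2.82, and 2.17 and 2.43 TPM in the same order. For both receptors the stress-high values sat inside the control range, and the left-out control of animal 35 was low, at 5.51 TPM of Oprl1 and 1.44 TPM of Oprd1. Oprk1 lay between 0.26 and 0.51 TPM in controls, 0.36 and 0.49 in stress-low and 0.16 and 0.44 in stress-high animals. Over the 4 receptors and Pnoc the log2 fold changes in the DG ran from -0.14 to 0.20 for control versus stress-low, from -0.12 to 0.26 for control versus stress-high and from -0.29 to 0.23 for stress-low versus stress-high, with SEs of 0.18 to 0.39 over these comparisons.

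**Figure D3:**
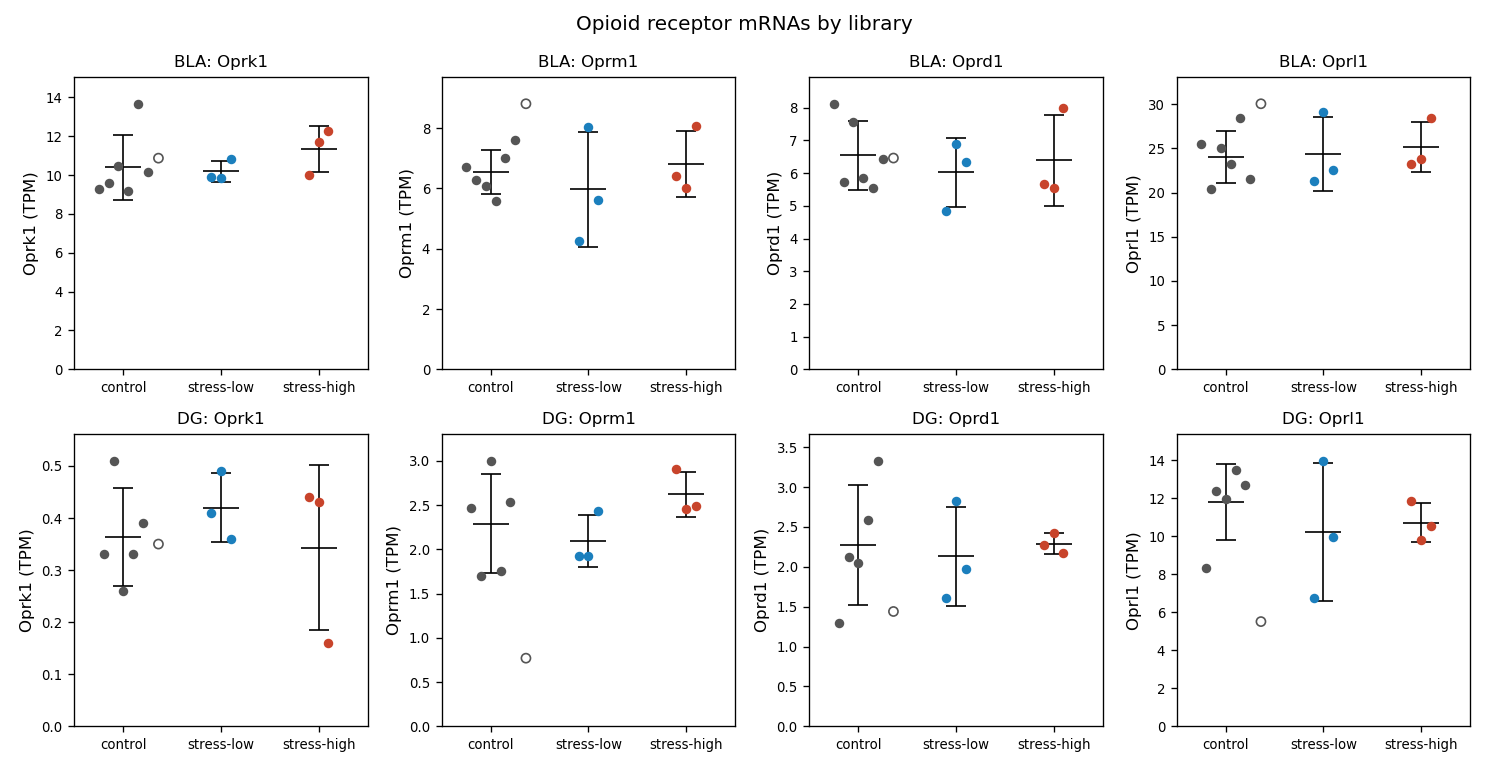
TPM of the 4 opioid receptors in each library of the BLA (upper row) and DG (lower row) by group, with the mean and SD as black bars and the left-out control library as an open circle. The groups overlap in every panel except Oprm1 in the DG, where the stress-low and stress-high libraries are 0.03 TPM apart and both lie within the control range.

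In the BLA, Penk and Pdyn varied more between animals of a group than between the groups. Penk had 320.0, 273, 248, 189.6, 272 and 645 TPM in control animals 14, 17, 27, 28, 32 and 35, 170.0, 633 and 308 TPM in stress-low animals 22, 30 and 34, and 346, 285 and 361 TPM in stress-high animals 7, 19 and 20. Control animal 35 and stress-low animal 30 were the highest, and the left-out control of animal 2 was higher still at 1306 TPM. Pdyn followed the same animals.

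Pdyn in the BLA had 7.27, 4.85, 7.76, 5.90, 5.78 and 16.03 TPM in control animals 14, 17, 27, 28, 32 and 35, 4.52, 16.5 and 6.98 TPM in stress-low animals 22, 30 and 34, and 9.29, 8.26 and 11.7 TPM in stress-high animals 7, 19 and 20. The left-out animal 2 had 52.1 TPM. The groups overlapped, and the SD of Pdyn was 6.34 TPM in stress-low animals against a mean of 9.34 TPM.

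The animals with high Penk and Pdyn also had the highest summed striatal and central amygdala markers and the highest summed CA pyramidal markers, and the lowest summed dentate granule cell markers. The BLA lies beside the striatum and the central amygdala. The list of their markers includes Adora2a, an adenosine receptor, Drd2, the D2 dopamine receptor, and Ppp1r1b (DARPP-32). The summed TPM of the 13 markers of that list was 596 in the left-out animal 2, 404 in animal 30 and 398 in animal 35, and between 165 and 256 in the other 10 libraries. Adora2a was at 50.2, 27.8 and 21.1 TPM in animals 2, 30 and 35 and at no more than 4.74 TPM in the others. For 9 of the 13 markers all 3 animals lay above every other library. The exceptions were Drd1, Gpr6, Prkcd and Tac1. Prkcd was at 26.1, 15.2 and 13.4 TPM in animals 2, 30 and 35 and at up to 15.5 TPM in the others. Tac1 was at 5.78, 12.0 and 7.81 TPM in the same animals and at 6.44 to 13.0 TPM in the others. By group the list ran from 165 to 398 TPM in controls, from 170 to 404 in stress-low animals and from 199.8 to 256 in stress-high animals, with medians of 175, 193 and 209, and none of the 13 markers was at 0 throughout. The projection neuron markers of the BLA were present in all libraries, at 1187 to 1710 TPM summed over 7 genes. The 8 CA pyramidal markers, among them Wfs1 and Man1a1, summed to 486, 318 and 338 TPM in animals 2, 30 and 35 and to at most 301 TPM in the other 10 libraries. The 9 granule cell markers summed to 163, 171 and 181 TPM in the same 3 animals and to at least 192 TPM in the others. These CA pyramidal and granule cell lists were made for the DG, so in the BLA their sums describe the listed genes and do not name a tissue. The part of striatal, central amygdala or other neighbouring tissue in the Penk and Pdyn levels was not tested.

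**Figure D4:**
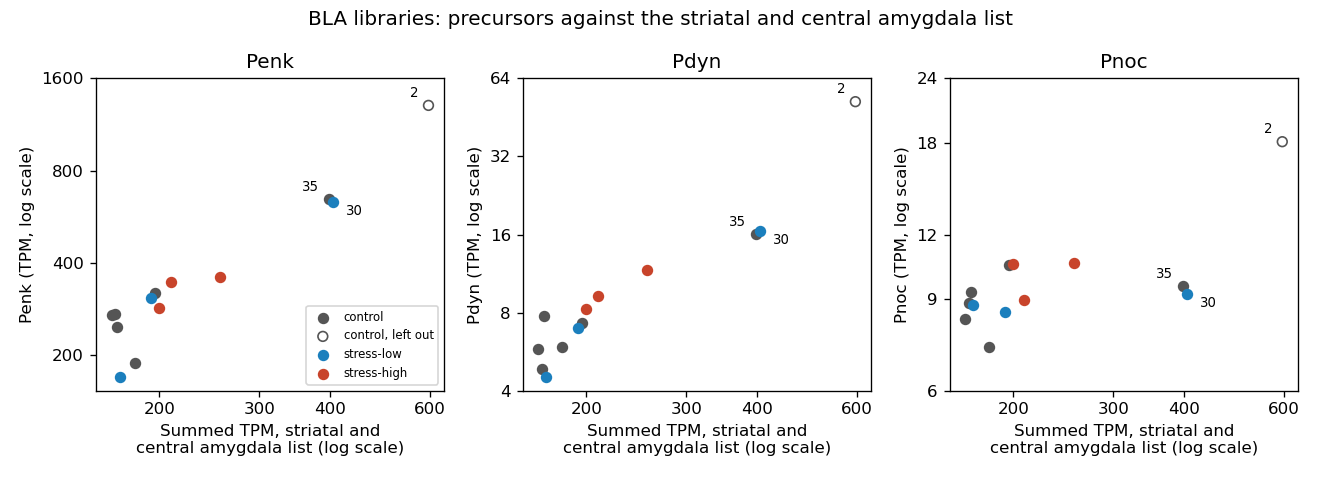
Penk, Pdyn and Pnoc TPM of the 13 BLA libraries against the summed TPM of 13 striatal and central amygdala markers, both on log axes, coloured by group, with animals 2, 30 and 35 numbered. Penk and Pdyn rise along the list up to the left-out animal 2, whereas Pnoc in animals 30 and 35 lies within the range of the 10 libraries with a low list sum.

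Across the 10 BLA libraries left when animals 30 and 35 are set aside, Pearson's r with the list sum was 0.86 for Pdyn and 0.66 for Penk, on log2(TPM + 1). With those 2 animals included r was 0.93 for Pdyn (adjusted permutation p = 0.000570, Spearman's rho 0.89, adjusted p = 0.0120) and 0.91 for Penk (adjusted permutation p = 0.00370, rho 0.85, adjusted p = 0.0291), so part of the pooled value rests on them. The third relation of the 57 computed that passed the adjustment for r was Penk with Oprm1 in the BLA, at r = 0.82 (adjusted permutation p = 0.0224, n = 12) and 0.80 without the 2 libraries farthest in Penk, while its rho of 0.78 did not pass (adjusted permutation p = 0.0667). The libraries behind each of these values share their dissection and their depth. Pdyn and Oprk1, the dynorphin precursor and receptor, had no relation past the threshold in either region (r = 0.04 in the BLA and 0.11 in the DG, adjusted permutation p = 0.948 and 0.866). Pdyn of the DG and Pdyn of the BLA gave r = -0.66 over the 9 animals with both (exact permutation p = 0.0514, adjusted 0.195), and 0.09 once group means were removed.

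No member passed the test in any BLA comparison. From control to stress-low the log2 fold change was 0.20 ± 0.36 for Pdyn and 0.13 ± 0.36 for Penk. From control to stress-high it was 0.30 ± 0.36 for Pdyn and 0.03 ± 0.36 for Penk, and from stress-low to stress-high 0.09 ± 0.42 and -0.10 ± 0.42. The adjusted p was 1.0 for each of these 6 values in edgeR's quasi-likelihood test over 15230 genes. Within the animals numbered up to 20, which leaves control animals 14 and 17, the change from control to stress-high was 0.66 for Pdyn (unadjusted p = 0.00427, adjusted p = 0.820, edgeR) and 0.15 for Penk. In that smaller fit 736 of 14993 genes were below an unadjusted p of 0.05 (edgeR). Within the animals numbered above 20 the change from control to stress-low was 0.053 for Pdyn and 0.080 for Penk. With animal number above 20 as a covariate Pdyn gave 0.053, 0.66 and 0.61 in the order above, with a smallest unadjusted p of 0.20 (edgeR), and Penk gave 0.077, 0.15 and 0.069. In the fit of all 12 libraries 0% of genes passed the adjustment in each of the 3 comparisons. In the order given, 2.75%, 2.57% and 1.98% of genes were below an unadjusted p of 0.05 (edgeR), against 0 of 7 members each time. The ranges of the groups did not overlap for 1.39%, 0.978% and 5.89% of genes, again against 0 of 7 members. Against both stress groups together the fold change was 0.25 ± 0.30 for Pdyn and 0.08 ± 0.29 for Penk, with 3.03% of genes and 0 of 7 members below an unadjusted p of 0.05 and 0.0788% of genes and 0 of 7 members not overlapping.

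The BLA values of Pdyn and Penk also depended on single libraries. Animals 30 and 35 held the highest Pdyn values of the BLA libraries in the fit, at 16.5 and 16.03 TPM. Leaving both out was a choice made after the values were seen. The log2 fold change of Pdyn was then 0.63 from control to stress-high and 0.74 from stress-low to stress-high. Leaving out the highest values shapes these changes, so they are a description and no test of Pdyn is drawn from them. The striatal and central amygdala list moved with Pdyn. The 3 stress-high libraries held 199.8, 209 and 256 TPM of the list. The next highest library beside animals 2, 30 and 35 was control animal 14 at 196 TPM. The values for Penk in the same fits were 0.35 and 0.46. With the left-out animal 2 included, the fold change from control to stress-high turned to -0.47 for Pdyn and -0.41 for Penk.

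Pnoc and the receptors of the BLA were steadier. Pnoc ran from 7.27 to 10.5 TPM in controls, 8.50 to 9.23 TPM in stress-low animals and 8.98 to 10.6 TPM in stress-high animals, with 18.1 TPM in the left-out animal 2. Oprk1 ran from 9.19 to 13.7, 9.86 to 10.8 and 10.01 to 12.3 TPM in the same order, and control animal 32 held the highest value. Oprm1 ran from 5.58 to 7.60, 4.25 to 8.04 and 6.01 to 8.07 TPM, and its highest and lowest stress-low values were those of animals 30 and 22, as for Penk. Oprd1 ran from 5.54 to 8.12, 4.84 to 6.90 and 5.53 to 7.99 TPM, and Oprl1 from 20.4 to 28.4, 21.3 to 29.1 and 23.3 to 28.4 TPM. The groups overlapped for all 5 genes. From stress-low to stress-high their log2 fold changes ran from 0.10 to 0.22, with SEs of 0.11 to 0.18. Over all genes the median change there was -0.000554 and the median absolute change 0.0722. The changes of the 5 genes ran from -0.15 to -0.018 from control to stress-low. From control to stress-high they ran from -0.041 to 0.17. The smallest unadjusted p of the 5 genes was 0.128 (edgeR), between the stress groups. Their values come from the same libraries, and a shared shift was not tested.

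**Figure D5:**
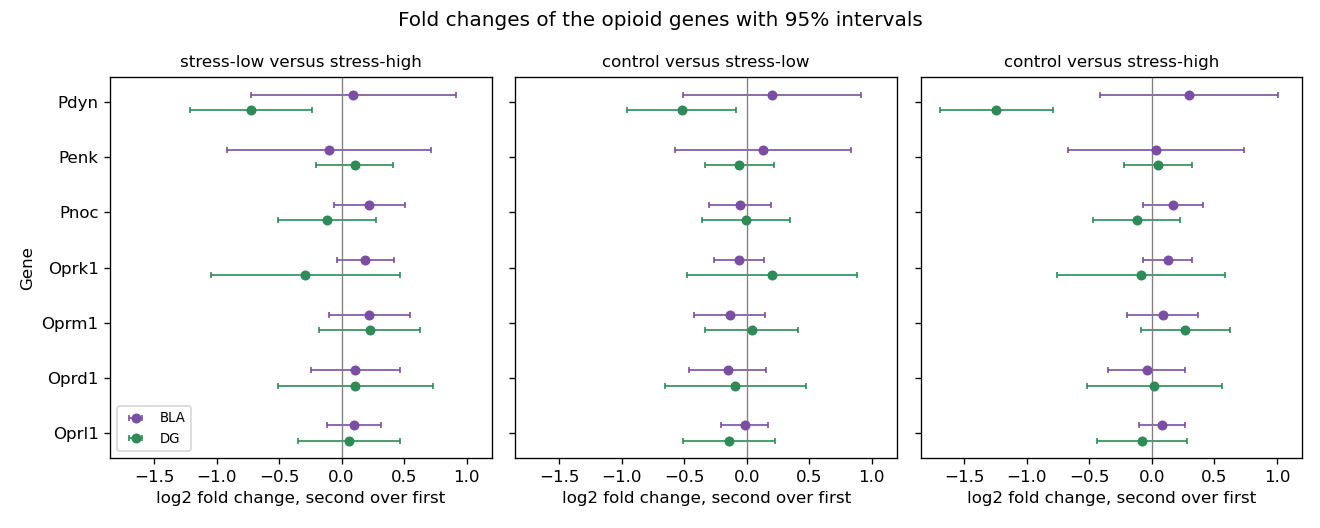
Log2 fold changes of the 7 members in the BLA (purple) and DG (green) for the 3 comparisons of groups, as estimates from edgeR with 95% intervals. Pdyn in the DG lies at -0.72, -0.52 and -1.24, and each other interval in the 3 panels includes 0.

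The difference of the group effects between the regions was tested in 1 fit of the 23 libraries. For control versus stress-high the log2 fold change of Pdyn in the DG less that in the BLA was -1.55 ± 0.46, where 0% of the 15453 genes passed and 1.84% were below an unadjusted p of 0.05. With the animal as a block, since the regions came from the same rats, the difference was -1.86, and with all libraries included it was -0.74. This difference contains the DG values by which the family was chosen, so its values are a description and no test of Pdyn is drawn from it. The corresponding differences for Pdyn were -0.77 ± 0.46 for control versus stress-low and -0.78 ± 0.52 for stress-low versus stress-high, both at an adjusted p of 1.0 in edgeR, with 3.21% and 2.00% of genes below an unadjusted p of 0.05. With the animal as a block they were -0.20 (adjusted p = 1.0, edgeR) and -1.66 (adjusted p = 0.658, edgeR). Leaving out the BLA library of stress-low animal 30 gave -0.10 and -1.44, and leaving out that of stress-low animal 22 gave -1.05 and -0.49. Both differences that involve stress-low animals hold DG control or stress-high values behind the choice of the family. Their p-values are thus no independent test of Pdyn. No other member passed in these 3 contrasts.

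Pomc, the precursor of beta-endorphin, lay outside the set and was near the limit of measurement in both regions. It was at 1.3 to 3.05 TPM in the BLA and 1.59 to 2.81 TPM in the DG, which was 10 to 28 expected counts per library, and it passed in no comparison.

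The enzymes that make and break opioid peptides, with 16 of 18 listed genes found and tested in each region, did not pass in any comparison. In the BLA Lnpep, an aminopeptidase that trims small peptides, had the smallest p of the list in the comparisons with stress-low animals. Its mean was 8.96 TPM in controls, 5.61 TPM in stress-low animals and 8.41 TPM in stress-high animals, with log2 fold changes of -0.71 ± 0.16 from control to stress-low (adjusted p = 1.0, edgeR) and 0.62 ± 0.18 from stress-low to stress-high (adjusted p = 1.0). With animal number above 20 as a covariate the latter was 0.26. Ece2, an endothelin converting enzyme that also cleaves opioid peptides, was at 12.9 TPM in BLA controls and 17.96 TPM in stress-low animals (0.43 ± 0.20), and without stress-low animal 30 this became -0.0078. In the DG Ece2 was at 28.7 TPM in controls and 32.7 TPM in stress-high animals (0.21 ± 0.09). Mme, the enkephalin-degrading neprilysin, missed the threshold between the stress groups of the DG, at 2.82 TPM in stress-low and 1.94 TPM in stress-high animals (-0.53 ± 0.22, adjusted p = 1.0, edgeR), and without stress-low animal 33 the change was -0.32.

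The list of 9 factors tied to Pdyn transcription, among them Creb1, Crem, Fos family genes and Kcnip3, also had no gene past the test. In the DG the median log2 fold change of the list from control to stress-high was -0.08, with 3 higher and 6 lower, beside a median of 0.00 over all genes. Creb1, the cyclic AMP response element binding protein, was at 8.47 TPM in DG controls and 10.6 TPM in stress-low animals (0.34 ± 0.14, adjusted p = 0.718, edgeR), and without stress-low animal 33 the change was 0.10. Receptor signalling and desensitization genes, with 24 of 25 found, had median changes between -0.02 and 0.04 in the pairwise comparisons of both regions. Of them Adcy8, a calcium-stimulated adenylyl cyclase, was at 8.64 TPM in stress-low and 6.11 TPM in stress-high animals of the DG (-0.51 ± 0.21, adjusted p = 1.0, edgeR).

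Ogfrl1, a gene related to the opioid growth factor receptor, also did not pass the test in the DG. It was at 75.6 TPM in controls, 90.8 TPM in stress-low and 75.5 TPM in stress-high animals. From control to stress-low the log2 fold change was 0.27 ± 0.09 (adjusted p = 0.718, edgeR), and from stress-low to stress-high it was -0.26 ± 0.10 (adjusted p = 1.0, edgeR). The stress-low mean lay above both other means for Ogfrl1 and between them for Pdyn.

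The genes whose levels followed a member most closely across the libraries differed between the regions. In the BLA Pdyn was most like Chrm5, Rgs9 and Ntsr1 (r = 0.98, 0.97 and 0.97 over 12 libraries, log2(TPM + 1)), and Rgs9 is on the striatal list. Penk in the BLA was most like Zfhx4, Rasgrp4 and Scn4b (r = 0.94, 0.93 and 0.93). In the DG Penk was most like Trh, the precursor of thyrotropin-releasing hormone (r = 0.95 over 11 libraries), followed by Ldlrad3 (0.92) and Bmper (0.89). Pdyn in the DG was most like RGD1304567 (0.90), Cdc45 (0.89) and D630023F18Rik (0.88). For the other members the single most like gene was Id1 for Pnoc, Xk for Oprk1, Tmem41a for Oprm1, Gins2 for Oprd1 and Golga1 for Oprl1 in the BLA (r = 0.88, 0.91, 0.93, 0.92 and 0.95), and Mef2bnb for Pnoc, Adcy6 for Oprm1, Cr1l for Oprd1 and Crb1 for Oprl1 in the DG (r = 0.93, 0.92, 0.91 and 0.94). Each is among the 3 highest of 14144 correlations in the BLA or 13493 in the DG, over libraries that share depth and dissection.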

How the data were processed

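Punches of the BLA and DG were sequenced as 13 and 12 libraries. Per the labels and the study's methods, the authors aligned reads to the rat Rn5 genome with STAR 2.6.0a and Ensembl 75 annotation and quantified genes with RSEM 1.3.1. The deposited tables hold, per gene and library, expected counts (estimated reads, not normalized) and TPM with gene and effective lengths, each computed by the authors. FPKM values were not used here.

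Expected counts were rounded, filtered with filterByExpr (minimum count 10), scaled by TMM and fitted with edgeR 4.0.16 (quasi-likelihood F-test, R 4.3.3, all 3 groups of a region in 1 fit), with Benjamini-Hochberg adjustment over all genes tested and a threshold of 0.05. All 7 members passed the filter in both regions. SEs are the fold change divided by the root of F. The study's own test (EBSeq) was not run. Single genes were also compared by exact two-sided permutation of TPM, and relations between libraries by Pearson and Spearman correlation of log2(TPM + 1) with 100000 permutations (exact below 10 animals), adjusted over 57 relations. The scripts were tested on simulated data. Alternatives were RLE scaling, no filter, DESeq2 1.42.0, limma 3.58.1 on TPM, other sample sets, covariates and blocks, and leaving out each library. No label says that libraries other than the 2 regions of a rat share an animal, so n counts animals.

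The members and gene lists were chosen with earlier results of these data known, and the 2 left-out controls were taken from them. Named were all members, Pomc, and from each other list at most the 2 genes with the smallest p in a comparison; for likeness, the 3 tested genes with the highest r to a member, for members whose own mean in the region was at least 1 TPM (no such minimum was set for the 3 genes). Promoter sequence is from RefSeq (GRCr8), and none of its coordinates was joined to Rn5.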

Additional observations from a re-analysis of the deposited data

Results flagged for a closer look

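In the BLA the control of animal 35 stood away from the 5 other controls in the fit for Pdyn (16.03 TPM) and Penk (645 TPM), and the control of animal 32 did so for Oprk1 (13.7 TPM). The gap to the nearest control made up 0.740, 0.713 and 0.714 of the group's range, above Dixon's critical value of 0.625 for 6 samples. Control groups were examined in this way for the 7 members in both regions, 14 in all of which 3 were picked out. Chance picks out about 1 in 20 of independent checks. These checks were not independent, since Pdyn and Penk were picked out in the same library, so the shares cannot be compared directly.

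The left-out BLA control of animal 2, which no comparison used, lay above every control in the fit for 5 members, with 52.1 TPM of Pdyn, 1306 TPM of Penk, 18.1 TPM of Pnoc, 8.81 TPM of Oprm1 and 30.0 TPM of Oprl1. Its summed TPM of striatal and central amygdala markers was also the highest of the 13 libraries, at 596. The part of these markers in the 5 values was not tested.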

How the results depend on the processing

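The count of members past the adjusted threshold was 0 under every alternative run in the BLA and DG comparisons, DESeq2 and limma included. It rose to 1 only in the difference between regions for control versus stress-high with the animal as a block, which contains the values that chose the family. That count is given without a share of all genes, so nothing is drawn from it. Pdyn in the DG kept its direction in all alternatives of the DG comparisons, and from control to stress-high its fold change ran from -1.52 to -1.10 when each library was left out. With all mapped libraries the relations past the threshold rose from 3 to 6, and the BLA changes turned to -0.56 and -0.31 (Pdyn and Penk, control versus stress-low), -0.47 and -0.41 (control versus stress-high) and -0.51 and -0.36 (control versus both stress groups), while the region difference of Pdyn for control versus stress-low turned to 0.048. Without BLA animals 30 and 35, control versus stress-low turned to -0.12 for Pdyn, -0.11 for Penk and -0.033 for Ece2. Penk between the BLA stress groups turned positive without them (0.46), with the number covariate (0.069) and in limma (0.034 at either pseudocount and without a filter). The cause was not tested.

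Leaving out each BLA library gave, for Pdyn and Penk in turn, -0.44 to 0.53 and -0.43 to 0.47 (control versus stress-low), -0.074 to 0.58 and -0.20 to 0.41 (control versus both stress groups), and -0.21 to 0.74 and -0.43 to 0.46 (stress-low versus stress-high). Pdyn from control to stress-high ran from 0.20 to 0.63 in the BLA, and Penk from -0.074 to 0.36 in the BLA and from -0.041 to 0.16 in the DG, and Ece2 in the BLA from -0.0078 to 0.61. For Pdyn and Penk in the BLA the extremes came from leaving out animals 22, 30 or 35, except for the lowest values from control to stress-high, which came from leaving out control animals 17 (Pdyn) and 28 (Penk).

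Replicate numbers in the sample titles did not pair libraries within a region, as 0 of 13 same-numbered pairs in the BLA and 1 of 14 in the DG correlated above 0.1. As a replicate block they left 0 members past the threshold, and gave -0.49 for Pdyn between the stress groups of the DG. In the BLA they gave, for Pdyn and Penk in turn, 0.49 and 0.41 (control versus stress-low), 0.67 and 0.38 (control versus stress-high), 0.58 and 0.40 (control versus both stress groups) and 0.18 and -0.033 (stress-low versus stress-high). A change the size of its SE could not be resolved, and 9 to 29 counts limit Oprk1 in the DG.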

Other observations

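Control rats carried a label of low or high score too. In the BLA Pdyn was at 4.85 to 7.27 TPM in the 3 controls labelled high and at 5.90 to 16.03 TPM in the 3 labelled low, where animal 35 was the highest. In the DG it was at 119 to 216 TPM in the 3 labelled high and at 177 and 199 TPM in the 2 labelled low. Penk in the DG was at 44.9 to 70.2 TPM and at 43.4 and 47.8 TPM in the same order. The labels overlapped in each case, and no test was run.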
